A study of Mus musculus with 12 samples.

Results

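Colon RNA of mice given a high-fat diet together with 2% DSS was compared with colon RNA of mice on the diet labelled CD, so that the sides differ by both insults at once. All samples were wild-type C57BL/6J mouse colon. The HFD+DSS group had 3 samples and the CD group 3, which are 6 of the 12 samples of the series; the other groups were HFD alone and CD with 2% DSS, with 3 samples each. DSS is dextran sulfate sodium, a sulfated polysaccharide that is given in drinking water to rodents to injure the colonic epithelium. The labels do not spell out CD and give no age, sex, number of animals, length of feeding or days of DSS. Of 54532 genes in the deposited table, 13360 reached 1 FPKM in at least 3 of these 6 samples, and all of these were tested. FPKM here is fragments scaled for transcript length and by a scaling number of each library.

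When the colonic epithelium is breached, bacterial products reach the tissue beneath it, and cytokines of the IL-6 and IL-22 families signal back to epithelial cells through the transcription factor STAT3. STAT3 targets include secreted antibacterial lectins, acute-phase proteins and the feedback inhibitor SOCS3. Dietary fat and its breakdown products separately act on intestinal cells through PPAR receptors, which switch on genes of fatty acid handling.

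Of the genes that rose in HFD+DSS, 8 belonged to the lists for epithelial defence, the acute phase and IL-6 and STAT3 signalling. The lists were chosen with earlier results of these data known, so this count is a description. In that order they had 23, 11 and 18 tested members, some shared, out of 13360 genes. The other genes that rose included 1 PPAR target and 1 matrix protease. Reg3b and Reg3g, the acute-phase gene Lrg1, the STAT3 feedback inhibitor Socs3, the chloride conductance gene Clca4b, the lipase inhibitor gene Angptl4 and Nos2, for inducible nitric oxide synthase, were among 15 genes that rose. The genes that fell were 4, among them Tppp, which codes for a microtubule-binding protein. A gene was called when limma's moderated test on log2(FPKM + 1), fitted over all 12 samples, gave a p under 0.05 once adjusted by Benjamini and Hochberg's method over the 13360 genes. The 19 called genes were 0.142% of those tested, with 0.112% called higher and 0.0299% called lower. At an unadjusted p under 0.05 there were 1699 genes (12.7%, against 668 by chance), of which 784 were higher (5.87%) and 915 lower (6.85%). The 3 values of HFD+DSS and the 3 of CD did not overlap for 2176 genes (16.3%), of which 1116 were higher (8.35%) and 1060 lower (7.93%). Positive fold changes made up 48.9% of all genes and the median log2 fold change was -0.01. The deposited values were already level at the median between libraries, so a median near 0 was favoured by their scaling.

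Between 16235181 and 17932294 fragments fell on genes in these 6 libraries, as recovered from the FPKM values. Epithelial markers were high throughout, with Epcam at 674 to 884 FPKM and Krt8 at 1823 to 2242. The small-intestinal lactase gene Lct stayed at or under 0.0981 and the gastric gene Muc5ac was at 0 in all 6. Of the other small-intestinal markers, Defa24 stayed at or under 0.143. Sis was at 0.474, 1.09 and 0.288 in HFD+DSS, against 0.112, 0.00853 and 0.651 in CD. Fabp6, also a bile acid gene, did not match, at 10.7 to 28.4 in HFD+DSS against 0.751 to 4.13 in CD. In a principal component analysis of the 12 libraries, HFD+DSS replicate 1 was the far one on the second component (score 48.8, against -29.0 to 14.5 for the rest), and HFD+DSS replicate 3 on the third (40.3, against -31.6 to 12.7). HFD+DSS replicate 3 also held more muscle and nerve RNA, with the smooth muscle actin gene Acta2 at 973 FPKM against 412 and 385 in its group and 389.5 to 483 in CD. CD replicate 3 held squamous and skeletal muscle RNA that was scarcer in the rest of these 6. The squamous keratin gene Krt15 was at 17.4 FPKM there, against 0.238 and 0.144 in its group and 0 to 0.148 in HFD+DSS. The muscle light chain gene Mylpf was at 5.82, against 0.282 and 0.719 in its group and 0.493 to 0.803 in HFD+DSS. Other members, such as Krt13 at 0.329, were not raised there, and these genes were picked after their values were seen. The sex is not labelled; the Y-linked gene Ddx3y was at 8.24 to 16.7 FPKM and Xist at or under 0.0284 in all 6 libraries. The labels do not state that samples within a group came from separate animals, so the p-values measure the spread between these samples. In whole tissue, fewer cells of a type and less RNA per cell cannot be told apart.

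The posterior Hox genes, which are switched on in the hindmost gut and so mark where along it a piece was taken, varied widely within both groups, and their combined level differed between the groups by less than that spread. Hoxb13 (ENSMUSG00000049604, mm10 chromosome 11, 96194316 to 96197447) was at 27.4, 37.8 and 62.8 in HFD+DSS, against 32.9, 61.3 and 28.8 in CD. Hoxd13 (ENSMUSG00000001819, mm10 chromosome 2, 74668310 to 74671599) was at 5.44, 5.03 and 21.7 in HFD+DSS, against 1.18, 27.2 and 1.50 in CD. Hoxa13 (ENSMUSG00000038203, mm10 chromosome 6, 52257694 to 52260880) was at 13.7, 9.25 and 8.29 in HFD+DSS, against 24.7, 22.7 and 7.96 in CD. The log2 fold changes were 0.05 ± 1.23 for Hoxb13, 0.84 ± 1.05 for Hoxd13 and -0.65 ± 0.64 for Hoxa13 (SE; limma adjusted p = 0.987, 0.751 and 0.672). All 3 genes overlapped between the groups, and for Hoxd13 the highest library of each group was over 3 times the next. The mean log2 level of the 3 genes was 3.80, 3.74 and 4.57 in HFD+DSS (4.04 ± 0.46, SD, n = 3) and 3.63, 5.11 and 3.13 in CD (3.96 ± 1.03, SD, n = 3). The difference was 0.08 ± 0.65 (SE; two-sided exact permutation p = 0.8 over 20 arrangements, the smallest possible being 0.1). Leaving out a library moved it between -0.33 and 0.66, with the highest value without CD replicate 2 and negative values without HFD+DSS replicate 3 (-0.19), CD replicate 1 (-0.08) or CD replicate 3 (-0.33).

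**Figure D1:**
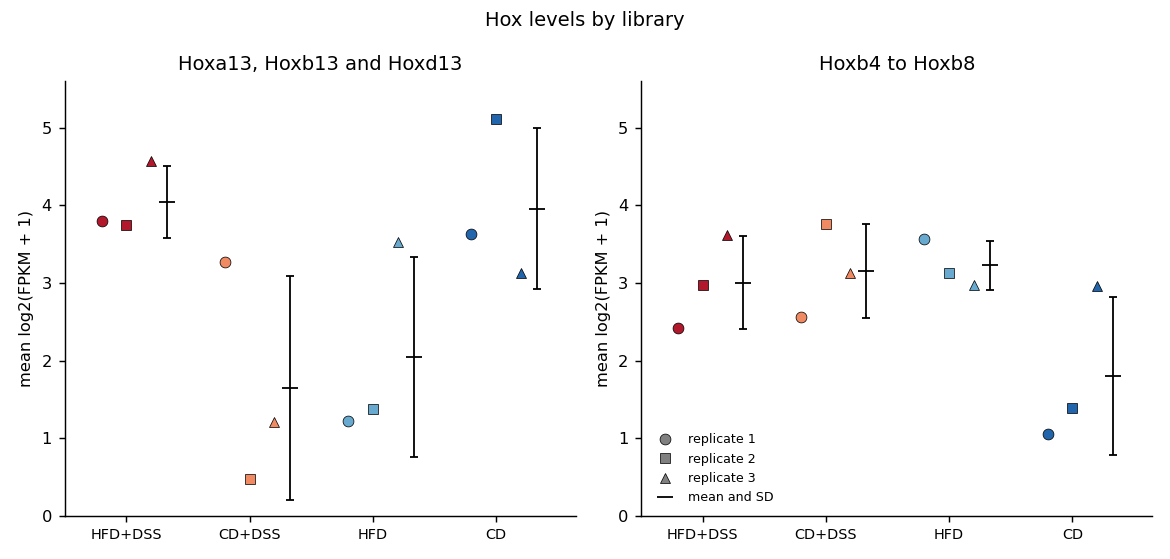
Mean log2(FPKM + 1) of Hoxa13, Hoxb13 and Hoxd13 (left) and of Hoxb4 to Hoxb8 (right) in each library, by group, with the group mean and SD as a bar beside the points. On the left HFD+DSS spans 3.74 to 4.57 and CD spans 3.13 to 5.11. On the right CD replicates 1 and 2 lie at 1.05 and 1.39, below all 10 other libraries.

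Hox genes further forward in the HoxB cluster did not match in the same way. The mean log2 level of Hoxb4, Hoxb5, Hoxb6, Hoxb7 and Hoxb8 was 2.41, 2.97 and 3.62 in HFD+DSS, against 1.05, 1.39 and 2.96 in CD. CD replicates 1 and 2 were the lowest of all 12 libraries, while CD replicate 3 lay within the HFD+DSS range. Hoxb6 was at 11.4, 19.4 and 36.1 in HFD+DSS, against 2.17, 2.82 and 24.7 in CD, and Hoxb8 at 4.23, 7.28 and 10.5 in HFD+DSS, against 0.728, 1.35 and 6.19 in CD. These genes, like the transport genes that follow, were singled out after their values had been seen.

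Several epithelial genes that differ along the intestine split the CD libraries in the same way. The chloride-bicarbonate exchanger gene Slc26a3 was at 81.6, 34.5 and 28.4 in HFD+DSS, against 164, 154 and 40.1 in CD, and the water channel gene Aqp8 at 272, 212 and 129 in HFD+DSS, against 452, 324 and 63.2 in CD. Slc51a, a subunit of the basolateral bile acid exporter, was at 21.1, 25.5 and 23.6 in HFD+DSS, against 0.656, 1.73 and 14.4 in CD, and the carbonic anhydrase gene Car1 at 6381, 3813 and 3291 in HFD+DSS, against 1139, 1296 and 4170.3 in CD. CD replicates 1 and 2 were high in Slc26a3 and Aqp8 and low in Slc51a and Car1, and CD replicate 3 lay inside the HFD+DSS range for Slc26a3 and Car1 and below it for Aqp8 and Slc51a. For genes with this split, position along the colon, the squamous and muscle RNA of CD replicate 3, and treatment cannot be told apart. With the middle HoxB level as a covariate, chosen after seeing the data, 0 genes were called by limma at an adjusted p under 0.05 and 1072 genes were at an unadjusted p under 0.05. All 19 genes kept their direction in that fit, with adjusted p values of 0.101 to 0.249. With CD replicate 3 as the sole CD library, whose spread is then assumed to be like that of the other groups, 1 gene was called, 493 were at an unadjusted p under 0.05 and all 19 again kept their direction. With the posterior Hox level as the covariate the count was 19, of which 16 were shared with the 19 called here.

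**Figure D2:**
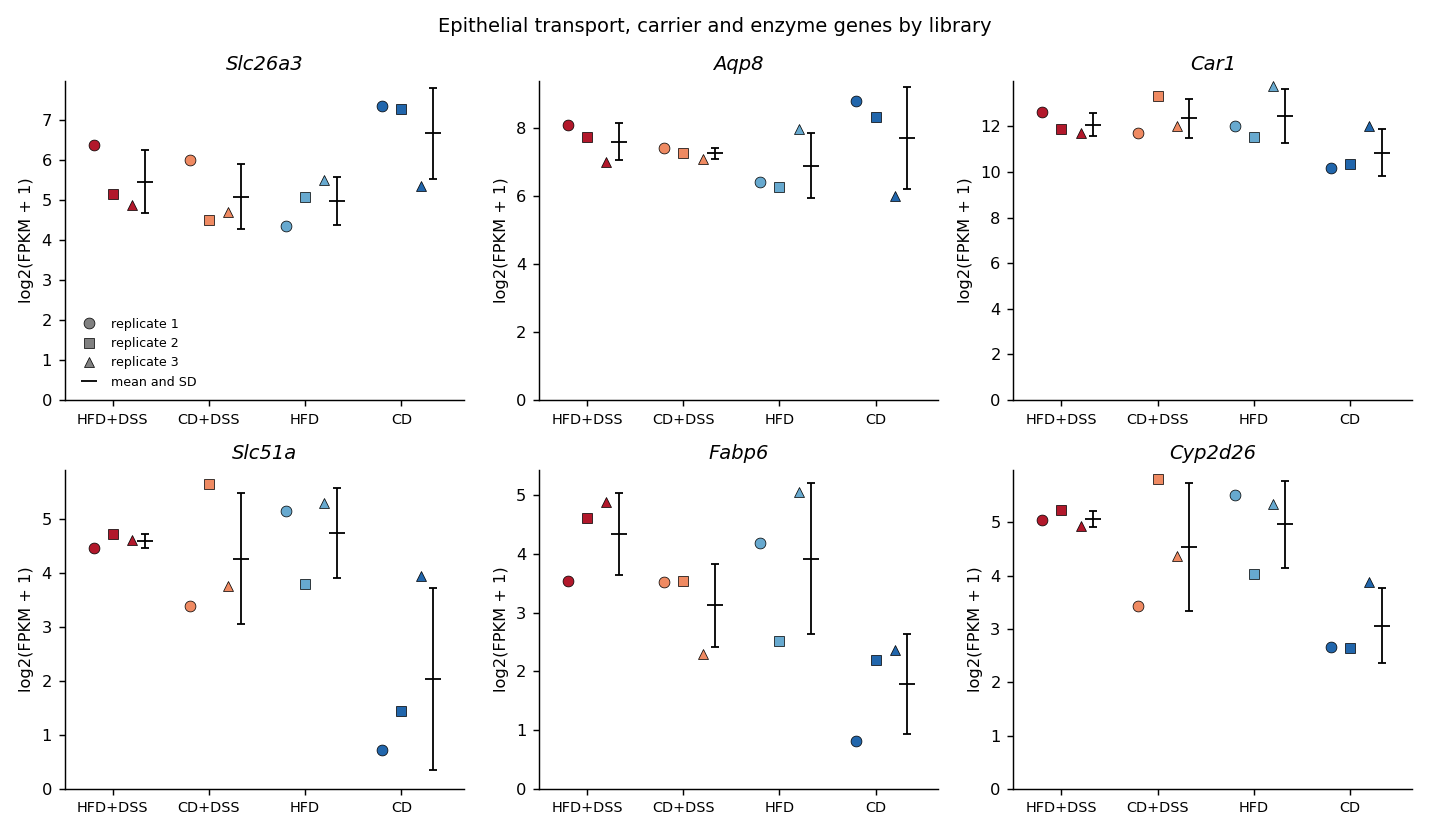
Slc26a3, Aqp8, Car1, Slc51a, Fabp6 and Cyp2d26 in each library as log2(FPKM + 1), by group, with group mean and SD. CD replicates 1 and 2 sit apart from CD replicate 3 in Slc26a3, Aqp8, Car1 and Slc51a; for Slc26a3 they are at 164 and 154 FPKM against 40.1 in replicate 3.

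Mmp3 and Prss27 were under 1 FPKM in all CD libraries, and 5430427M07Rik in all HFD+DSS libraries, so these 3 entered the test through 1 group alone. All 19 called genes had groups that did not overlap, beside 16.3% of all genes tested. Calling them on these same values favoured that outcome, and for the 3 just named the filter set it. The number called changed with the libraries in the fit. It was 4 when HFD+DSS replicate 1 was left out, 8 when replicate 3 of that group was, 1 without CD replicate 1 (Socs3), 5 without CD replicate 2, 11 without CD replicate 3 and 10 without HFD replicate 1. It was 52 without HFD+DSS replicate 2, 32 without CD+DSS replicate 2 and 15 to 23 without any other library. Socs3 was called in all 12 of these fits (highest adjusted p = 0.0425, limma) and Lrg1 in 11, the exception being an adjusted p = 0.0501 without CD replicate 1. Clca4b was called in 10, and Reg3g, Nos2 and Rpl21-ps10 in 9 each. Bcl3, Angptl4 and 5430427M07Rik were called in 8, Mmp3 and Ptk6 in 7, and Tppp and Tldc2 in 6. Slc5a9 and Prss27 were called in 5, Reg3b in 4, and Sbno2, Steap4 and Igkv4-90 in 3. The highest adjusted p among the 17 genes other than Socs3 and Lrg1 was 0.105 to 0.22, and no log2 fold change of the 19 moved by over 1.5 times.

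**Figure D3:**
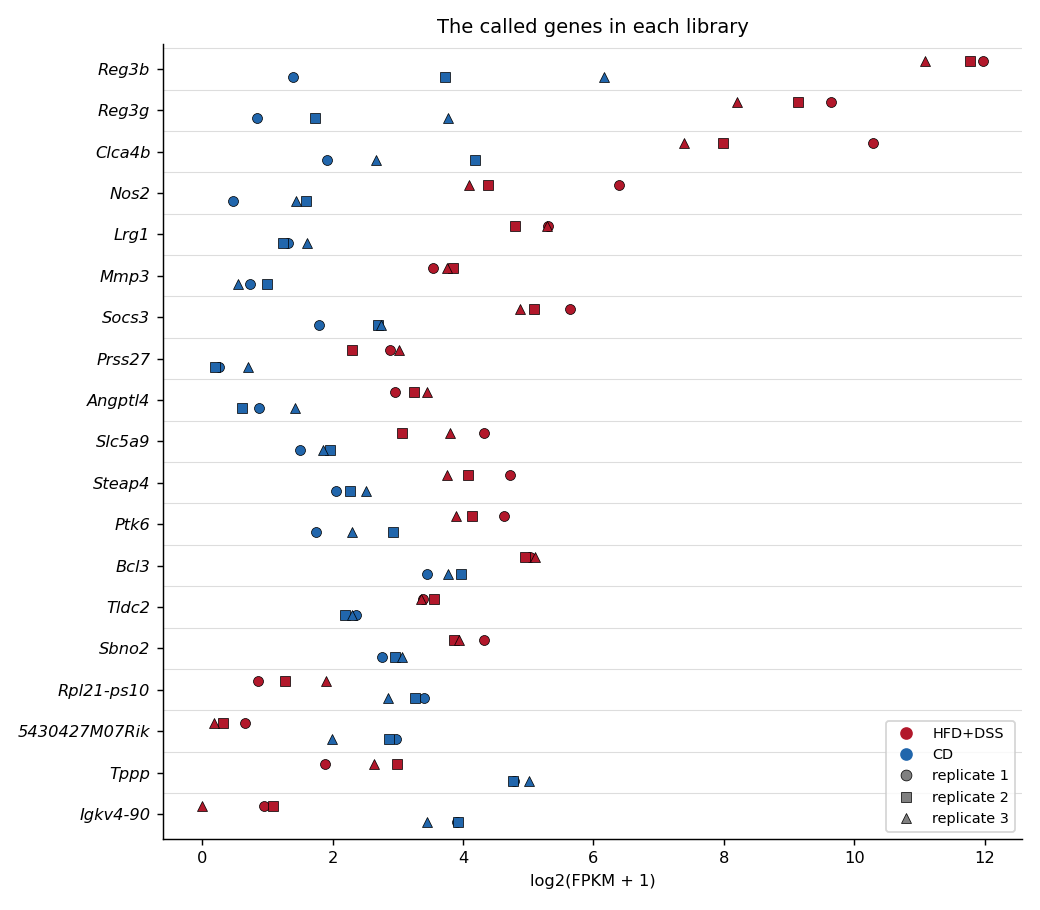
The 19 called genes, as log2(FPKM + 1) in each HFD+DSS library (red) and each CD library (blue), ordered by fold change. The 15 genes from Reg3b to Sbno2 are higher in all 3 HFD+DSS libraries than in any CD library, and the 4 genes from Rpl21-ps10 to Igkv4-90 are lower.

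Genes of the acute phase and of IL-6 and STAT3 signalling made up 5 of the 15 that rose. Lrg1, a secreted leucine-rich glycoprotein (ENSMUSG00000037095, mm10 chromosome 17, 56119678 to 56122001), was at FPKM 38.6, 26.7 and 38.1 in HFD+DSS, against 1.49, 1.36 and 2.04 in CD. Its lowest HFD+DSS library was over 10 times its highest CD library, and its log2 fold change was 3.74 ± 0.39 (SE; limma adjusted p = 0.00751). Socs3 (ENSMUSG00000053113, mm10 chromosome 11, 117966079 to 117970047), which binds cytokine receptors and blocks further STAT3 activation, was at 48.7, 32.9 and 28.3 in HFD+DSS, against 2.45, 5.46 and 5.66 in CD. The groups lay far apart, with a log2 fold change of 2.79 ± 0.30 (limma adjusted p = 0.00751). Bcl3, a nuclear member of the IkappaB family that modulates NF-kappaB (ENSMUSG00000053175, mm10 chromosome 7, 19808462 to 19822770), was at 31.8, 29.8 and 33.4 in HFD+DSS, against 9.88, 14.7 and 12.6 in CD and changed by 1.30 ± 0.17 (limma adjusted p = 0.0187), with close replicates in both groups. Sbno2, a transcriptional co-regulator induced by IL-10 and IL-6 family cytokines (ENSMUSG00000035673, mm10 chromosome 10, 80056992 to 80105571), was at 19.0, 13.5 and 14.4 in HFD+DSS, against 5.74, 6.76 and 7.35 in CD and changed by 1.12 ± 0.17 (limma adjusted p = 0.0323). Steap4, a metalloreductase induced by inflammatory cytokines (ENSMUSG00000012428, mm10 chromosome 5, 7960457 to 7982213), was at 25.2, 15.8 and 12.5 in HFD+DSS, against 3.15, 3.83 and 4.70 in CD and changed by 1.90 ± 0.30 (limma adjusted p = 0.0399).

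The rest of the acute-phase list was mostly higher without passing the test. Of its 11 tested members 2 were called, both higher, 10 had positive fold changes and the median log2 fold change was 1.62, against -0.01 for all genes. Saa3, a serum amyloid A made in extrahepatic tissue, was at 14.6, 26.7 and 20.3 in HFD+DSS, against 0.667, 0.220 and 1.96 in CD (log2 3.53 ± 0.61; limma adjusted p = 0.0573). Hp, which codes for haptoglobin, was at 15.0, 49.8 and 36.3 in HFD+DSS, against 0.784, 0.951 and 4.00 in CD, and Lcn2, an iron-withholding lipocalin, at 4.20, 5.24 and 2.82 in HFD+DSS, against 0.457, 0.558 and 0.892 in CD. Saa3, Hp and Lcn2 had groups that did not overlap, as did 7 of the 11 members in all, each higher in HFD+DSS, against 8.35% of all genes; Lcn2 reached 1 FPKM in HFD+DSS alone. The IL-6 and STAT3 list had 3 of 18 tested members called, all higher, against 0.112% of all genes. Positive fold changes were 13 of the 18, against 48.9% of all genes, and the median was 0.37. The groups did not overlap for 9 members, each higher in HFD+DSS, against 8.35% of all genes. Stat3 itself was at 26.2, 23.1 and 24.1 in HFD+DSS, against 13.6, 19.1 and 14.7 in CD (log2 0.61 ± 0.14; limma adjusted p = 0.138). The oncostatin M receptor gene Osmr was at 4.93, 2.91 and 2.21 in HFD+DSS, against 1.09, 1.49 and 1.09 in CD, and Lif, a cytokine of the IL-6 family, at 2.16, 1.33 and 1.52 in HFD+DSS, against 0.813, 0.527 and 0.648 in CD. Lif reached 1 FPKM in HFD+DSS alone, so its positive sign and lack of overlap were set by the filter. Il6 did not reach the filter and was not tested. Its FPKM was 0.162, 0.510 and 0.345 in HFD+DSS, against 0, 0 and 0.0494 in CD.

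Promoter windows from RefSeq (build GRCm38.p6, 250 bases before to 50 after a start, with more than 1 window for some genes) were at hand for 11 of the 15 genes that rose and 2 of the 4 that fell. They were read for the letters TTCCNGGAA, a spaced palindrome bound by STAT proteins, and for a form of the NF-kappaB site, GGGA and TTCC parted by 2 free bases, each on both strands. The STAT letters were in the windows of 2 of the 11 genes, Steap4 and Sbno2, against 1.35% of 27025 genes with a window and 1.68% of the 9632 tested genes with a window. The NF-kappaB letters were in 0 of the 11, against 1.63% of all genes with a window. The 2 windows that hold the STAT letters, shown because both genes rose, follow 5′ to 3′ on the strand of the gene, with the matched letters in capitals; the match begins at position -116 relative to the start in Steap4 and at -24 in Sbno2. The Sbno2 window is 1 of 3 for that gene and its start lies inside the annotated gene. A match describes the letters and was not tested for binding.
Steap4 (chr5:7960222-7960521, plus strand): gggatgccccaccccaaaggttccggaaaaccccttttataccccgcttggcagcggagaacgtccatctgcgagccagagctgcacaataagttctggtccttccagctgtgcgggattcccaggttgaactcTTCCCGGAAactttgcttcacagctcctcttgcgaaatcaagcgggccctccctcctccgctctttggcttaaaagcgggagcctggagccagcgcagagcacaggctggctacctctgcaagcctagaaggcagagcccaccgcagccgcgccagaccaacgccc
Sbno2 (chr10:80101138-80101437, minus strand): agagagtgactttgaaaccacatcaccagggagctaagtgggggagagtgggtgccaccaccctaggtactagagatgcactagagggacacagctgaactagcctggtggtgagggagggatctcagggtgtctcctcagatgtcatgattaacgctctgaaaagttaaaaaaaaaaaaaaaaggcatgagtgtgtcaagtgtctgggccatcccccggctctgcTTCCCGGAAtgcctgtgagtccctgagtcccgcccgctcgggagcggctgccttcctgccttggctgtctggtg

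Epithelial defence genes split into a group that was higher in HFD+DSS and a smaller group that was lower. Reg3b (ENSMUSG00000071356, mm10 chromosome 6, 78370657 to 78373466), a secreted lectin that binds bacteria, was at FPKM 4027, 3489.6 and 2173 in HFD+DSS, against 1.63, 12.2 and 70.7 in CD. Its relative Reg3g (ENSMUSG00000030017, mm10 chromosome 6, 78466269 to 78468872), which kills Gram-positive bacteria, was at 797, 558 and 294 in HFD+DSS, against 0.794, 2.32 and 12.6 in CD. Both were high in all 3 HFD+DSS libraries and ranged over 10-fold within CD, with CD replicate 1 lowest; log2 fold changes were 7.85 ± 1.23 for Reg3b and 6.88 ± 0.86 for Reg3g (limma adjusted p = 0.0377 and 0.0187). How reads shared by these related genes were counted is not given in the sources used here, so their split is uncertain. Nos2 (ENSMUSG00000020826, mm10 chromosome 11, 78920787 to 78960254), the inducible nitric oxide synthase, was at 82.7, 19.9 and 16.0 in HFD+DSS, against 0.394, 2.03 and 1.73 in CD. HFD+DSS replicate 1 was the highest by over 4-fold, and the log2 fold change was 3.78 ± 0.52 (limma adjusted p = 0.0205).

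These were the 3 of 23 tested defence genes that were called, beside a list median of 0.94; 13 members were higher and 3 lower without overlap, against 8.35% and 7.93% of all genes. Of these, Lcn2, S100a8 and S100a9 reached 1 FPKM in HFD+DSS alone and Itln1 in CD alone. Slpi, a secreted inhibitor of neutrophil proteases, was at 123, 42.9 and 40.0 in HFD+DSS, against 8.84, 11.7 and 9.50 in CD (log2 2.47 ± 0.45; limma adjusted p = 0.0597). S100a9, a subunit of calprotectin that neutrophils carry in bulk, was at 16.0, 5.18 and 2.91 in HFD+DSS, against 0.115, 0 and 0 in CD, and its partner S100a8 at 22.3, 3.49 and 1.89 in HFD+DSS, against 0.173, 0.183 and 0 in CD. HFD+DSS replicate 1 was the highest library for Slpi and for both calprotectin genes. The 3 that were lower without overlap are products of secretory epithelial cells. Ang4, a microbicidal ribonuclease, was at 21.8, 16.8 and 2.88 in HFD+DSS, against 238, 262 and 3194 in CD (log2 -5.65 ± 1.09; limma adjusted p = 0.0741). The galactose-binding lectin gene Itln1 was at 0.230, 0.740 and 0.551 in HFD+DSS, against 5.36, 5.97 and 76.4 in CD, and Retnlb, a resistin-like goblet cell product, at 163, 192 and 92.7 in HFD+DSS, against 329.6, 366 and 1300.3 in CD. CD replicate 3 was the highest library for Ang4, Itln1 and Retnlb, by over 3-fold each, and for all 3 every HFD+DSS library was below every CD library.

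Cytokine genes were mostly at low levels. Of 20 listed cytokines and mediators 9 were tested, all 9 had positive fold changes (median 0.99) and 1 was called, Nos2, which this list shares with the defence list. Lif, 1 of the 9, reached 1 FPKM in HFD+DSS alone, so its positive sign was set by the filter. The list median was 0.65 without CD replicate 3. The tumour necrosis factor gene Tnf was at 6.84, 3.92 and 2.17 in HFD+DSS, against 1.10, 1.63 and 1.10 in CD (log2 1.13 ± 0.28; limma adjusted p = 0.15), and the alarmin gene Il33 at 6.11, 7.37 and 3.59 in HFD+DSS, against 1.23, 1.81 and 2.12 in CD. Il1b was at 8.77, 5.64 and 1.43 in HFD+DSS, against 4.12, 3.20 and 1.70 in CD, and its groups overlapped, with HFD+DSS replicate 3 the lowest of the 6. Il1rn, which codes for the antagonist of the IL-1 receptor, was at 17.1, 13.0 and 10.9 in HFD+DSS, against 6.73, 9.98 and 3.60 in CD. Of 25 tested chemokines and receptors 0 were called by limma, with 3 higher and 0 lower at an unadjusted p under 0.05 and a median of 0.19. The monocyte attractant gene Ccl2 was at 9.22, 4.11 and 3.96 in HFD+DSS, against 1.21, 0.447 and 1.42 in CD, and the neutrophil attractant gene Cxcl5 at 16.9, 3.41 and 3.46 in HFD+DSS, against 0.225, 0.922 and 0.0966 in CD. Another such gene, Cxcl1, was at 2.59, 2.55 and 1.15 in HFD+DSS, against 0.224, 0.509 and 0.224 in CD. Of the 25, 4 were higher without overlap, these 3 among them, and 1 was lower, against 8.35% and 7.93% of all genes. Cxcl5 and Cxcl1 reached 1 FPKM in HFD+DSS alone, so their lack of overlap was set by the filter. The chemokine median turned to -0.05 without HFD+DSS replicate 1, was 0.02 without CD replicate 1 and 0.04 without HFD+DSS replicate 2, and was 0.40 without HFD+DSS replicate 3.

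Genes listed as markers of white blood cells did not move together. Of 18 neutrophil markers 4 reached the filter, and the summed FPKM of all 18 was 131 to 632 in HFD+DSS and 134 to 259 in CD. The granule gene Ngp was at 0 in all 6 libraries, Mpo was at or under 0.0459 and Elane at or under 0.122. Ltf, the lactoferrin gene, was at 34.0, 0.783 and 1.61 in HFD+DSS, against 0.0521, 0.148 and 0.156 in CD and so high in HFD+DSS replicate 1 alone. Ly6g, whose reads may be shared with other Ly6 genes, was at 521, 101 and 92.7 in HFD+DSS, against 30.4, 165 and 22.7 in CD. Cd177, on the same list, was at 32.2, 64.3 and 29.2 in HFD+DSS, against 129, 90.8 and 109 in CD. It was lower in HFD+DSS without overlap (log2 -1.44 ± 0.32, limma adjusted p = 0.119). In those CD libraries S100a9 was at 0.115, 0 and 0 and S100a8 at 0.173, 0.183 and 0. Which cells the Cd177 RNA came from was not tested. None of 16 macrophage and monocyte markers was called, with 1 higher and 2 lower at an unadjusted p under 0.05 and a median of -0.18. Without 1 library it was 0.09 (HFD+DSS replicate 3), -0.40 (HFD+DSS replicate 2) or -0.05 (CD replicate 3). Cd14, a co-receptor for bacterial lipopolysaccharide, was at 57.0, 54.2 and 63.6 in HFD+DSS, against 29.4, 43.8 and 28.7 in CD, and the macrophage surface gene Adgre1 at 2.65, 6.73 and 2.46 in HFD+DSS, against 6.70, 9.96 and 10.8 in CD. The 20 tested T and NK cell markers had a median of 0.03 and the 12 MHC class II genes a median of 0.33, with 0 called in each. The class II median was 0.03 without HFD+DSS replicate 1 and 0.01 without CD replicate 1, and the T and NK cell median lay between -0.09 and 0.28 without 1 library, at -0.09 without CD replicate 1 and -0.08 without HFD+DSS replicate 2. At an unadjusted p under 0.05, 1 of the T and NK cell markers was higher and 0 of the class II genes passed. The part of these cells in the rises above was not tested.

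Among genes of the absorptive epithelium Clca4b rose steeply, and most of the others had negative fold changes. Clca4b (ENSMUSG00000074195, mm10 chromosome 3, 144910921 to 144932529), a secreted regulator of calcium-activated chloride conductance, was at FPKM 1251, 251 and 167 in HFD+DSS, against 2.78, 17.1 and 5.32 in CD. HFD+DSS replicate 1 was about 5 times the next library, no CD library came near the HFD+DSS range, and the log2 fold change was 5.63 ± 0.72 (limma adjusted p = 0.0187). Its relative Clca4a was at 206, 112 and 19.3 in HFD+DSS, against 295, 264 and 102 in CD, with groups that overlapped, and reads of the 2 genes may not be fully separable. Clca4b was the 1 called gene among 26 tested colonocyte and ion transport genes, whose median log2 fold change was -0.20, with 17 negative. That median was -0.44 without HFD+DSS replicate 1 and -0.51 without CD replicate 3, -0.01 without HFD+DSS replicate 3, -0.08 without CD replicate 1 and -0.10 without CD replicate 2, and turned to 0.15 with CD replicate 3 as the sole CD library. The sodium-potassium-chloride cotransporter gene Slc12a2 was at 45.0, 54.8 and 35.9 in HFD+DSS, against 94.8, 81.7 and 74.5 in CD (log2 -0.89 ± 0.24; limma adjusted p = 0.178), and the chloride channel gene Cftr at 11.3, 17.4 and 11.3 in HFD+DSS, against 32.5, 23.1 and 17.3 in CD. The butyrate transporter gene Slc5a8 was at 57.9, 55.1 and 32.0 in HFD+DSS, against 85.6, 91.3 and 47.2 in CD, where CD replicate 3 overlapped the HFD+DSS range.

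Of the genes that rose, Ptk6, Slc5a9, Prss27 and Tldc2 were on none of the lists, and the cells their RNA came from were not tested. Ptk6 (ENSMUSG00000038751, mm10 chromosome 2, 181193721 to 181202789), an intracellular tyrosine kinase of differentiating epithelia, was at 23.8, 16.7 and 13.8 in HFD+DSS, against 2.36, 6.64 and 3.90 in CD, a log2 fold change of 1.90 ± 0.27 (limma adjusted p = 0.0228). Slc5a9 (ENSMUSG00000028544, mm10 chromosome 4, 111875375 to 111902918), a sodium-coupled sugar transporter, was at 19.1, 7.38 and 13.0 in HFD+DSS, against 1.83, 2.91 and 2.61 in CD and changed by 1.96 ± 0.29 (limma adjusted p = 0.026). Prss27 (ENSMUSG00000050762, mm10 chromosome 17, 24038144 to 24045954), a membrane-anchored serine protease, was at 6.33, 3.91 and 7.15 in HFD+DSS, against 0.191, 0.152 and 0.622 in CD and changed by 2.35 ± 0.36 (limma adjusted p = 0.0357). Tldc2 (ENSMUSG00000074628, mm10 chromosome 2, 157087055 to 157096482), a protein with a TLDc domain, was at 9.51, 10.7 and 9.24 in HFD+DSS, against 4.12, 3.57 and 3.93 in CD and changed by 1.15 ± 0.17 (limma adjusted p = 0.0228). In Tldc2 the replicates were tight on both sides, while Slc5a9 varied over 2-fold within HFD+DSS and Prss27 lay under 1 FPKM in all CD libraries.

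Most fatty acid genes had positive fold changes, and Angptl4 rose. Angptl4 (ENSMUSG00000002289, mm10 chromosome 17, 33773750 to 33781830), a secreted inhibitor of lipoprotein lipase and a PPAR target, was at FPKM 6.74, 8.51 and 9.87 in HFD+DSS, against 0.839, 0.523 and 1.68 in CD. All HFD+DSS libraries were over 4 times the highest CD library, and the log2 fold change was 2.25 ± 0.31 (limma adjusted p = 0.0205). Of 35 tested fatty acid oxidation and PPAR target genes 28 had positive fold changes, the median was 0.39, 1 was called and 13 were higher without overlap, against 8.35% of all genes. Vnn1, a pantetheinase anchored to the cell surface, was at 28.5, 21.6 and 10.3 in HFD+DSS, against 0.670, 1.05 and 1.64 in CD (log2 3.23 ± 0.56; limma adjusted p = 0.0573). Acaa1b, a thiolase of peroxisomal fatty acid oxidation, was at 12.0, 24.0 and 25.3 in HFD+DSS, against 0.244, 0.227 and 2.97 in CD (log2 3.49 ± 0.66; limma adjusted p = 0.0675). The lipid droplet coat gene Plin2 was at 62.3, 44.9 and 42.0 in HFD+DSS, against 21.8, 27.9 and 24.7 in CD, and the acyl-CoA dehydrogenase gene Acadl at 261, 112 and 97.5 in HFD+DSS, against 69.7, 64.8 and 63.1 in CD. The carnitine carrier gene Slc25a20 was at 80.0, 49.3 and 38.6 in HFD+DSS, against 21.8, 28.1 and 24.8 in CD. HFD+DSS replicate 1 was the highest for Vnn1, Plin2, Acadl and Slc25a20 and the lowest of its group for Angptl4 and Acaa1b. CD replicate 3 was the highest CD library for Angptl4, Vnn1 and Acaa1b, as for Slc51a, but not for Plin2, Acadl or Slc25a20. The coactivator gene Ppargc1a was lower in every HFD+DSS library, at 4.01, 5.08 and 2.40 in HFD+DSS, against 7.30, 6.73 and 5.41 in CD, and did not pass (limma adjusted p = 0.333).

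Several genes that handle bile acids were higher in HFD+DSS, with 0 called. Of 13 tested, 7 were positive, 5 were higher without overlap (8.35% of all genes), 0 lower, and the median was 0.33; 4 were higher at an unadjusted p under 0.05. The bile acid binding protein gene Fabp6 was at 10.7, 23.4 and 28.4 in HFD+DSS, against 0.751, 3.59 and 4.13 in CD (log2 2.56 ± 0.64; limma adjusted p = 0.159), and the exporter subunit gene Slc51b at 97.4, 47.8 and 48.5 in HFD+DSS, against 18.0, 17.7 and 32.6 in CD. The bile acid receptor gene Nr1h4 was at 61.9, 69.9 and 55.6 in HFD+DSS, against 26.4, 29.8 and 49.4 in CD (log2 0.86 ± 0.32; limma adjusted p = 0.298). The uptake transporter gene Slc10a2 was at 32.1, 18.0 and 9.69 in HFD+DSS, against 0.881, 3.56 and 22.6 in CD. CD replicate 3 was the highest CD library for Fabp6, Slc51b, Nr1h4 and Slc10a2, as for Hoxb8 and Slc51a, although CD replicate 2 was close to it for Fabp6. Sterol and fatty acid synthesis genes had a median of -0.13 over 27 tested, which was -0.24 without CD replicate 3 and -0.07 without CD replicate 1 or CD replicate 2. Of them 0 were called by limma and 3 were lower at an unadjusted p under 0.05, among them Acaca at 3.30, 4.65 and 3.61 in HFD+DSS, against 6.01, 5.28 and 5.25 in CD.

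Matrix genes gave 1 call. Mmp3 (ENSMUSG00000043613, mm10 chromosome 9, 7445822 to 7455975), the matrix metalloproteinase stromelysin-1, was at FPKM 10.6, 13.4 and 12.5 in HFD+DSS, against 0.666, 0.989 and 0.466 in CD. The 3 HFD+DSS values lay close together, over 10 times the highest CD value, and the log2 fold change was 2.96 ± 0.40 (limma adjusted p = 0.0189). Of 15 tested metalloproteinases and inhibitors 12 had positive fold changes, 6 were higher without overlap, against 8.35% of all genes, and the median was 0.28. Mmp3, Mmp10 and Adamts9, 3 of those 6, reached 1 FPKM in HFD+DSS alone, and with the minimum at FPKM 5 the median was 0.03. The inhibitor gene Timp1 was at 6.20, 7.04 and 5.66 in HFD+DSS, against 1.42, 1.50 and 1.49 in CD (log2 1.56 ± 0.45; limma adjusted p = 0.203), and Mmp10, a protease made by migrating epithelium, at 4.45, 17.0 and 1.52 in HFD+DSS, against 0.766, 0.850 and 0.662 in CD. Fibroblast and matrix genes had a median of -0.22 over 29 tested, with 0 called by limma and 1 higher and 2 lower at an unadjusted p under 0.05. The small proteoglycan gene Ogn was at 17.6, 25.9 and 21.9 in HFD+DSS, against 60.5, 91.9 and 45.8 in CD (log2 -1.52 ± 0.31; limma adjusted p = 0.0903), below CD in all 3 HFD+DSS libraries. The fibroblast median was -0.08 without CD replicate 3.

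The 4 genes that fell shared no list. Tppp (ENSMUSG00000021573, mm10 chromosome 13, 74009407 to 74035753), which bundles microtubules, was at FPKM 2.70, 6.90 and 5.25 in HFD+DSS, against 26.5, 26.1 and 31.1 in CD. The groups were separated by a wide gap, and the log2 fold change was -2.35 ± 0.33 (limma adjusted p = 0.0228). Igkv4-90 (ENSMUSG00000076533, mm10 chromosome 6, 68807179 to 68807708), a variable segment of the immunoglobulin kappa chain, was at 0.931, 1.12 and 0 in HFD+DSS, against 14.0, 14.1 and 9.88 in CD, a change of -3.08 ± 0.49 (limma adjusted p = 0.0377). Rpl21-ps10 (ENSMUSG00000105359, mm10 chromosome 3, 38107443 to 38107922), a pseudogene of the ribosomal protein gene Rpl21 whose reads may come from near-identical copies, was at 0.820, 1.41 and 2.73 in HFD+DSS, against 9.62, 8.62 and 6.25 in CD and changed by -1.83 ± 0.24 (limma adjusted p = 0.0187). 5430427M07Rik (ENSMUSG00000085004, mm10 chromosome 12, 91045848 to 91079907), a gene known by its clone name, was at 0.574, 0.246 and 0.138 in HFD+DSS, against 6.82, 6.29 and 2.99 in CD and changed by -2.22 ± 0.30 (limma adjusted p = 0.0189). The next in order, E330009J07Rik, was at 3.98, 5.12 and 3.40 in HFD+DSS, against 10.6, 8.65 and 14.3 in CD and was not called (log2 -1.23 ± 0.20; limma adjusted p = 0.0534).

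Goblet cell genes mostly had negative fold changes, with 0 of 25 called by limma. Their median log2 fold change was -0.53, the lowest of the lists with 9 or more tested members, 20 were negative and 7 were lower without overlap, against 7.93% of all genes; 11 were lower at an unadjusted p under 0.05. Muc2, which codes for the main gel-forming mucin of the colon, was at FPKM 401, 304 and 365 in HFD+DSS, against 1109, 510.4 and 768 in CD (log2 -1.09 ± 0.31; limma adjusted p = 0.193). The guanylin gene Guca2a was at 574, 926 and 555 in HFD+DSS, against 2293, 1229.6 and 1360.1 in CD (log2 -1.23 ± 0.33; limma adjusted p = 0.177), and the sialyltransferase gene St3gal6 at 13.1, 10.1 and 9.11 in HFD+DSS, against 24.8, 29.6 and 21.3 in CD (log2 -1.16 ± 0.25; limma adjusted p = 0.104). All 3 HFD+DSS libraries were below CD for Muc2, Guca2a and St3gal6. Not all goblet products followed, since the trefoil factor gene Tff3 was at 1663, 1234 and 889 in HFD+DSS, against 417, 754 and 888 in CD, higher without overlap by a narrow margin. The lectin gene Zg16 was at 2682, 1596 and 964 in HFD+DSS, against 683, 876 and 967 in CD, with groups that overlapped. The chloride channel regulator gene Clca1 was at 861, 435 and 160.1 in HFD+DSS, against 763, 1087 and 3795 in CD, with CD replicate 3 far above the rest.

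Crypt-base and tuft cell genes also leaned lower, with 0 called by limma. Of 16 tested stem and crypt-base genes 14 were negative, 7 were lower without overlap, against 7.93% of all genes, and the median was -0.39. At an unadjusted p under 0.05, 7 were lower. Tnfrsf19, among those without overlap, reached 1 FPKM in CD alone, so its direction and lack of overlap were set by the filter. The Wnt target gene Axin2 was at 2.48, 3.57 and 4.09 in HFD+DSS, against 10.0, 5.57 and 5.44 in CD (log2 -0.84 ± 0.22; limma adjusted p = 0.175), and the Eph receptor gene Ephb3 at 2.18, 3.29 and 3.68 in HFD+DSS, against 6.74, 5.28 and 6.36 in CD. The hyaluronan receptor gene Cd44 was at 12.9, 10.9 and 6.93 in HFD+DSS, against 17.9, 16.6 and 22.2 in CD. The Wnt feedback regulator gene Rnf43 was at 4.49, 4.46 and 3.95 in HFD+DSS, against 5.16, 4.43 and 4.03 in CD, with groups that overlapped. Proliferation genes had a median of -0.05 over 24 tested, with 0 called by limma and 0 at an unadjusted p under 0.05. That median was -0.19 without HFD+DSS replicate 1, -0.10 without CD replicate 3, -0.02 without HFD+DSS replicate 2 and 0.04 without HFD+DSS replicate 3. Among 13 tuft cell genes 5 were lower without overlap, against 7.93% of all genes (median -0.27, 3 at an unadjusted p under 0.05), led by Cd24a, a surface glycoprotein also found on crypt cells, at 98.4, 107 and 59.9 in HFD+DSS, against 268, 196 and 245 in CD (log2 -1.44 ± 0.25; limma adjusted p = 0.0573). Alox5, 1 of the 5 tuft cell genes lower without overlap, reached 1 FPKM in CD alone, so its direction was set by the filter. The tuft cell median was -0.14 without HFD+DSS replicate 1 and -0.41 without HFD+DSS replicate 3.

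Of 13 tested B and plasma cell genes, 11 were negative, 2 were lower without overlap (7.93% of all genes), the other 11 overlapped and 5 were lower at an unadjusted p under 0.05, with a median of -0.32 and 0 called by limma. The median was -0.83 without HFD+DSS replicate 1 and -0.71 without CD replicate 1. Tnfrsf17, the B cell maturation antigen of plasma cells, was at 0.563, 1.93 and 1.03 in HFD+DSS, against 3.53, 4.45 and 3.53 in CD (log2 -1.20 ± 0.21; limma adjusted p = 0.0595). Jchain, which joins IgA dimers, was at 249.6, 514 and 127 in HFD+DSS, against 611, 1024 and 864 in CD, and the kappa constant gene Igkc at 2348, 5173 and 1938 in HFD+DSS, against 4265, 7812 and 7901 in CD. The summed FPKM of the list was 3096 to 7952 in HFD+DSS and 6736 to 12393 in CD, so HFD+DSS replicate 2 lay within the CD range. The B cell receptor gene Cd79b was at 21.9, 5.23 and 2.05 in HFD+DSS, against 4.48, 17.3 and 6.83 in CD, high in HFD+DSS replicate 1 and CD replicate 2.

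Nerve and glia genes mostly had positive fold changes, and several were highest in HFD+DSS replicate 3. Of 18 tested, 16 were positive, 11 were higher at an unadjusted p under 0.05, 5 were higher without overlap, against 8.35% of all genes, and 0 were called by limma; the median was 0.58, and 0.33 without HFD+DSS replicate 3. The neuronal tubulin gene Tubb3 was at 12.0, 7.23 and 39.1 in HFD+DSS, against 6.64, 4.77 and 6.33 in CD, and the peripheral neuron filament gene Prph at 14.1, 9.63 and 46.5 in HFD+DSS, against 7.83, 7.10 and 6.81 in CD. Gfap, the filament of enteric glia, was at 9.65, 2.76 and 9.79 in HFD+DSS, against 1.21, 1.22 and 1.11 in CD (log2 1.79 ± 0.32; limma adjusted p = 0.0597), high in HFD+DSS replicates 1 and 3 alike. Smooth muscle genes had a median of 0.26 over 16 tested, which was -0.18 once HFD+DSS replicate 3 was left out, 0.45 once replicate 1 was and 0.53 once replicate 2 was, with 0 called by limma and 1 lower at an unadjusted p under 0.05. Their summed FPKM was 1539, 1497 and 4374 in HFD+DSS, against 1557, 1924 and 1652 in CD. The Hedgehog-binding gene Hhip was at 0.520, 0.912 and 0.381 in HFD+DSS, against 2.13, 5.43 and 2.76 in CD. Its log2 fold change was -1.41 ± 0.26 (limma adjusted p = 0.0597). Hhip was the smooth muscle gene that was lower at an unadjusted p under 0.05. It reached 1 FPKM in CD alone, so its direction was set by the filter.

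**Figure D4:**
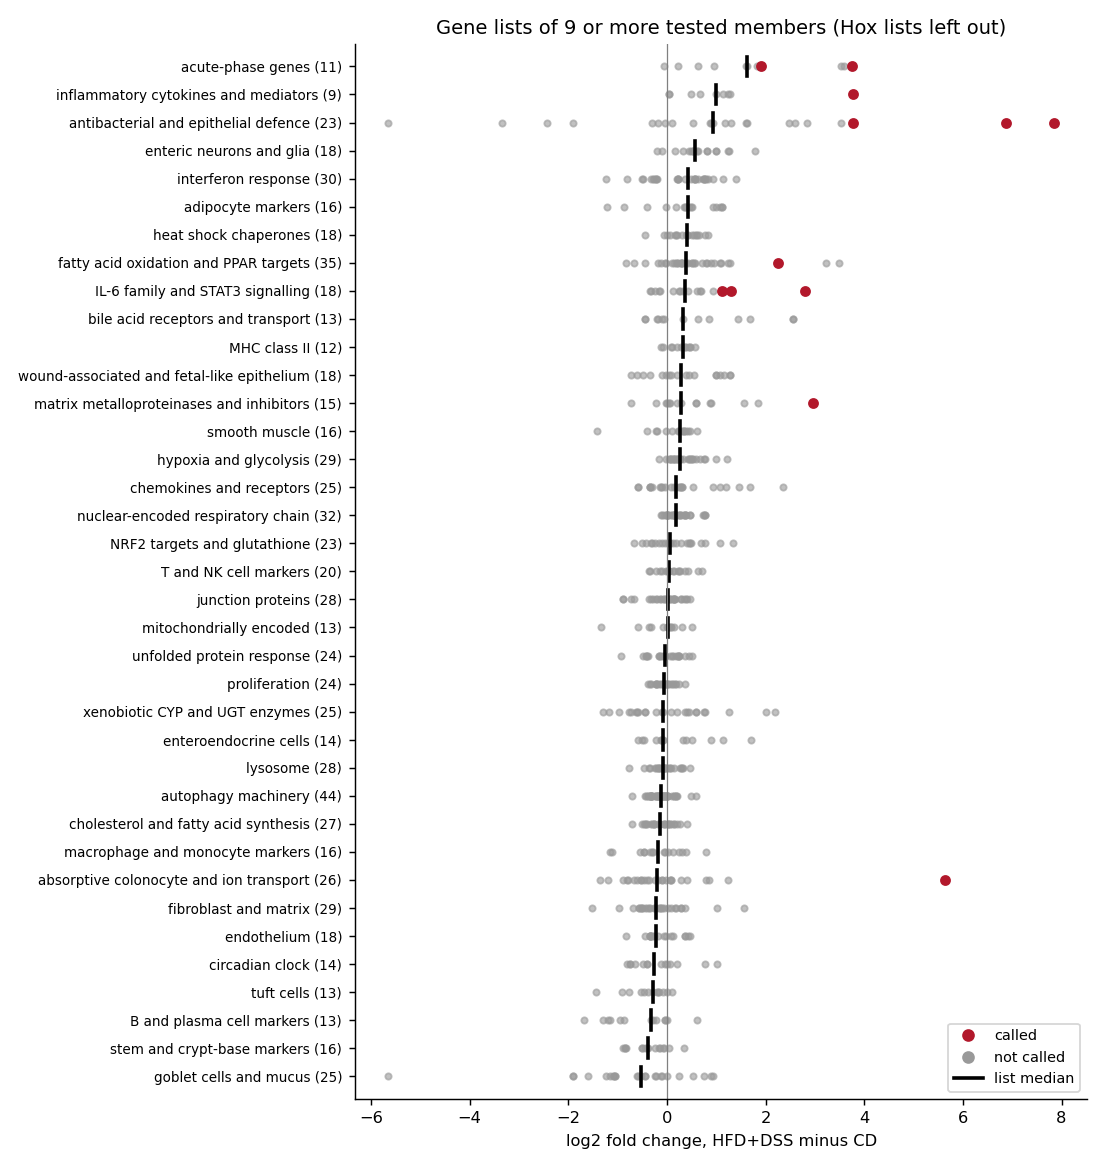
Log2 fold changes of HFD+DSS against CD for the tested members of each list with 9 or more of them (number in brackets), Hox lists left out, with called genes in red and the list median as a bar. Medians run from 1.62 for acute-phase genes to -0.53 for goblet cell genes, and most members of most lists are not called.

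Interferon-induced genes were highest in HFD+DSS replicate 1. The median of 30 tested genes was 0.43 with 0 called by limma and 3 higher at an unadjusted p under 0.05, and it was -0.20 once that replicate was left out, and was 0.92 without replicate 2 of the group and 0.27 without CD replicate 3. Their summed FPKM was 2192, 412 and 677 in HFD+DSS, against 807, 821 and 545 in CD. The transcription factor gene Irf8 had the smallest p of the list, at 26.6, 18.9 and 21.5 in HFD+DSS, against 10.8, 11.6 and 15.5 in CD (log2 0.78 ± 0.21; limma adjusted p = 0.189), and Irf1 was at 67.6, 48.5 and 57.6 in HFD+DSS, against 28.2, 33.4 and 41.2 in CD. Wound-associated epithelial genes had a median of 0.29 over 18 tested, with 0 called by limma and 4 higher at an unadjusted p under 0.05, and a median of 0.08 without HFD+DSS replicate 1 and 0.19 without CD replicate 1; the stem cell antigen gene Ly6a was at 1921, 477 and 564 in HFD+DSS, against 299, 482 and 253 in CD.

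Autophagy genes, a subject in the title of the study, gave 0 calls of 44 tested by limma, with 0 higher and 4 lower at an unadjusted p under 0.05. Their median log2 fold change was -0.13, 32 were negative and 3 were lower without overlap, against 7.93% of all genes. Wipi1, which binds phosphoinositide on forming autophagosomes, was at FPKM 3.73, 5.46 and 3.90 in HFD+DSS, against 9.86, 6.90 and 6.61 in CD (log2 -0.71 ± 0.18; limma adjusted p = 0.159). The initiating kinase gene Ulk1 was at 4.71, 6.19 and 6.93 in HFD+DSS, against 9.24, 7.28 and 8.13 in CD (log2 -0.42 ± 0.16; limma adjusted p = 0.328). For both, every HFD+DSS library was below every CD library. The autophagy median was -0.08 without HFD+DSS replicate 3. Map1lc3b, which codes for the LC3 protein of autophagosome membranes, was at 19.2, 20.2 and 20.0 in HFD+DSS, against 18.9, 21.1 and 18.4 in CD (log2 0.03 ± 0.14). The cargo receptor gene Sqstm1 was at 68.6, 75.4 and 57.9 in HFD+DSS, against 72.2, 65.0 and 73.2 in CD (log2 -0.06 ± 0.17). The groups overlapped for both. Lysosomal genes had a median of -0.08 over 28 tested, with 0 called by limma and 2 lower at an unadjusted p under 0.05. Unfolded protein response genes had a median of -0.03 over 24 tested, with 0 called by limma and 4 lower at an unadjusted p under 0.05. Both medians turned positive without HFD+DSS replicate 3, at 0.06 and 0.04, and the second also without CD replicate 3, at 0.06. The lysosomal median was -0.13 without HFD+DSS replicate 1 and -0.03 without CD replicate 2, and the unfolded protein median -0.12 without CD replicate 1, -0.09 without HFD+DSS replicate 1 and -0.02 without HFD+DSS replicate 2. The stress sensor gene Atf6 was at 7.96, 9.24 and 5.86 in HFD+DSS, against 11.4, 11.8 and 9.80 in CD.

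Of 14 tested clock genes 6 were lower and 2 higher without overlap, against 7.93% and 8.35% of all genes, with 0 called by limma and 5 lower and 2 higher at an unadjusted p under 0.05. The repressor gene Cry1 was at 11.2, 12.9 and 8.58 in HFD+DSS, against 23.7, 20.1 and 15.8 in CD, and Per2, another repressor, at 2.21, 2.69 and 3.62 in HFD+DSS, against 4.71, 4.81 and 5.34 in CD. The activator gene Arntl was at 5.66, 7.43 and 5.39 in HFD+DSS, against 12.3, 12.8 and 8.46 in CD. For all 3 the HFD+DSS libraries were below CD. Nfil3, a repressor that opposes clock output, was at 17.1, 16.4 and 18.1 in HFD+DSS, against 8.02, 7.63 and 14.6 in CD, and Nr1d1, which represses Arntl, at 3.52, 2.98 and 6.35 in HFD+DSS, against 1.03, 1.92 and 1.73 in CD. The clock median was -0.27, and -0.14 without CD replicate 2. The labels give no time of day. Of 29 tested hypoxia and glycolysis genes 27 were positive, 11 were higher without overlap (8.35% of all genes) and 0 were called by limma, with a median of 0.26 and 7 higher at an unadjusted p under 0.05; the glycolytic gene Pfkp was at 22.8, 21.2 and 17.7 in HFD+DSS, against 13.7, 13.7 and 15.0 in CD. The oxygen sensor gene Egln3 was at 38.6, 28.3 and 27.6 in HFD+DSS, against 15.2, 18.5 and 20.4 in CD. Heat shock chaperones had a median of 0.40 over 18 tested, 0.60 without HFD+DSS replicate 2, with 16 positive, with 0 called by limma and 4 higher and 1 lower at an unadjusted p under 0.05. Xenobiotic enzymes had a median of -0.07 over 25 tested, with 0 called by limma and 2 higher and 1 lower at an unadjusted p under 0.05. Of these, Cyp2c66 was at 3.47, 5.67 and 4.33 in HFD+DSS, against 0, 0.0654 and 0.555 in CD. It reached 1 FPKM in HFD+DSS alone, so its direction was set by the filter. Sult1a1 was at 32.3, 92.3 and 98.9 in HFD+DSS, against 166, 127 and 111 in CD. The xenobiotic median was positive without HFD+DSS replicate 3 (0.14), CD replicate 2 (0.12) or CD replicate 3 (0.10), -0.15 without HFD+DSS replicate 2 and -0.03 without HFD+DSS replicate 1. Nuclear-encoded respiratory chain genes had a median of 0.18 over 32, with 26 positive, 0 called by limma and 1 higher at an unadjusted p under 0.05.

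The other groups show where the 19 genes stood with 1 insult at a time. These comparisons share samples with the one above, and are given side by side. Because the 19 were called on the same HFD+DSS and CD values, separation from either group was favoured in advance. The shares of all genes set beside them are background, and no support is drawn from them. All 15 genes that rose were also higher in CD+DSS than in CD without overlap, against 13.8% of all genes. In HFD alone every library was above CD for Angptl4 (4.26% of all genes) and below CD for Mmp3 (5.25%), and the other 13 overlapped. Of the 13360 genes limma called 11 in CD+DSS against CD (0.0823%), 0 in HFD against CD, 51 in HFD+DSS against HFD (0.382%) and 0 in HFD+DSS against CD+DSS. At an unadjusted p under 0.05, HFD against CD gave 546 genes (4.09%) and HFD+DSS against CD+DSS 893 (6.68%). A difference in the effect of DSS between the diets was called for 0 genes, with 723 (5.41%) at an unadjusted p under 0.05. Lrg1, Angptl4 and Ptk6 were higher in all HFD+DSS libraries than in any CD+DSS library, against 3.66% of all genes. For Lrg1 CD+DSS was at 9.34, 9.10 and 16.1 and HFD at 6.11, 1.21 and 1.48, and HFD+DSS minus CD+DSS was 1.53 ± 0.39 in log2 units (limma adjusted p = 0.698). For Angptl4 CD+DSS was at 3.27, 4.10 and 5.45 and HFD at 6.36, 2.67 and 7.44, and this difference was 0.84 ± 0.31 (limma adjusted p = 0.722). Ptk6 had 10.4, 12.6 and 13.0 FPKM in CD+DSS, and in HFD 4.03, 3.75 and 4.88, with a difference of 0.52 ± 0.27 (limma adjusted p = 0.752).

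The other 12 genes that rose overlapped between HFD+DSS and CD+DSS. Socs3 was at 36.0, 20.9 and 33.6 in CD+DSS, and Mmp3 at 19.1, 10.1 and 47.4, each overlapping HFD+DSS. Log2 fold changes against CD were 2.79 ± 0.30 in HFD+DSS and 2.52 ± 0.30 in CD+DSS for Socs3, and 2.96 ± 0.40 in HFD+DSS and 3.70 ± 0.40 in CD+DSS for Mmp3. Of the 4 genes that fell, Rpl21-ps10, 5430427M07Rik and Igkv4-90 were lower in HFD+DSS than in CD+DSS without overlap, against 5.91% of all genes. Tppp had 12.7, 8.03 and 4.21 FPKM in CD+DSS, and in HFD 23.8, 18.7 and 20.2, below CD in every library of both (10.6% of all genes for CD+DSS). Igkv4-90 was also below CD without overlap in HFD, at 0.892, 2.58 and 2.78 FPKM (log2 -2.20 ± 0.49; limma adjusted p = 0.675), and there HFD+DSS overlapped HFD. HFD+DSS was above HFD without overlap for 14 of the 15 that rose (9.13% of all genes), Angptl4 being the exception, and below it for Tppp, Rpl21-ps10 and 5430427M07Rik (7.37%). The posterior Hox level did not match on these sides, with CD+DSS at 3.26, 0.47 and 1.21, and HFD at 1.23, 1.37 and 3.53.

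**Figure D5:**
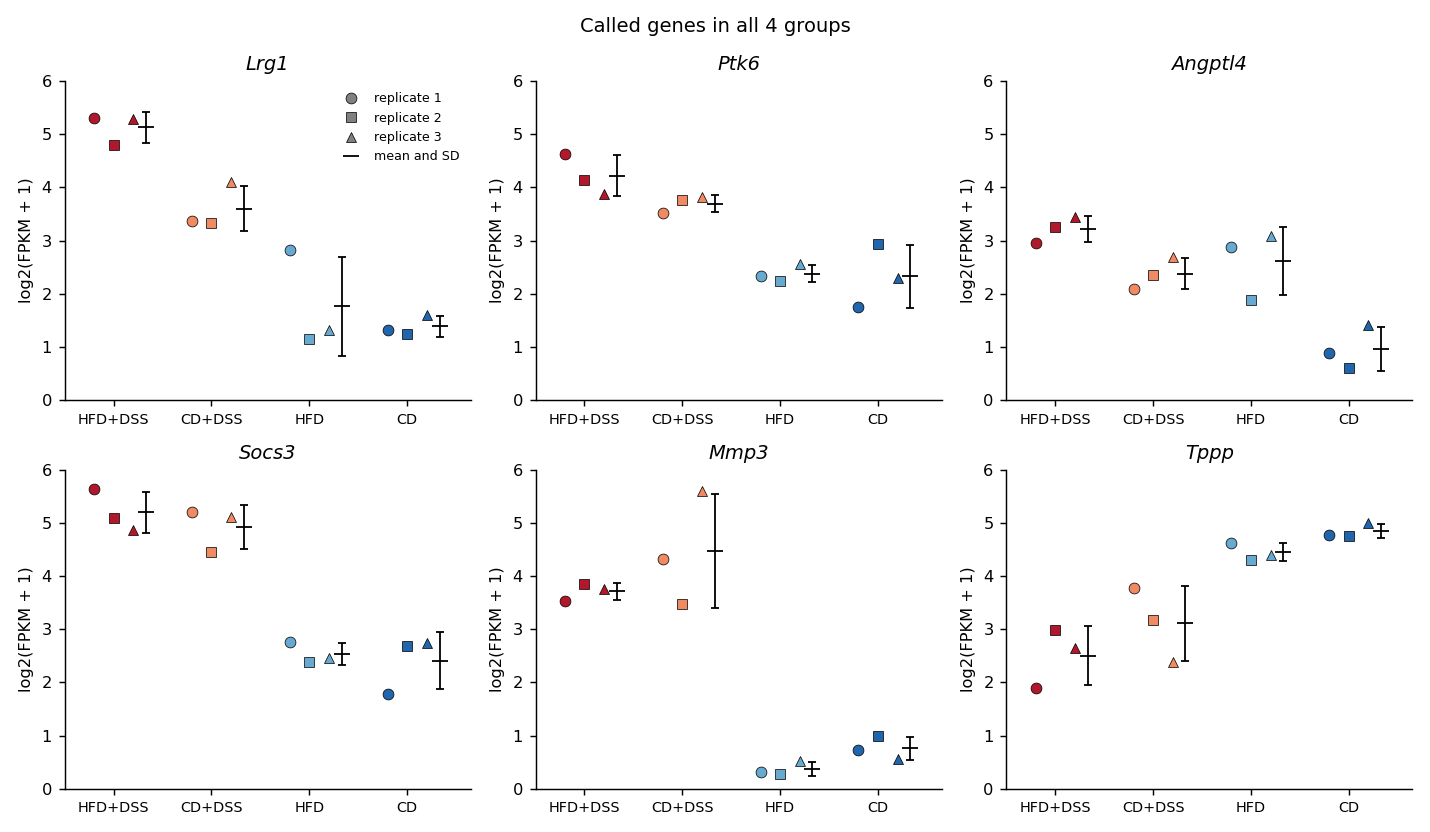
Lrg1, Ptk6, Angptl4, Socs3, Mmp3 and Tppp as log2(FPKM + 1) in each library of the 4 groups, with group mean and SD. Lrg1, Ptk6 and Angptl4 are higher in all HFD+DSS libraries than in any CD+DSS library, Socs3 and Mmp3 overlap between the DSS groups, and Tppp is at 2.70 to 6.90 FPKM in HFD+DSS against 26.1 to 31.1 in CD.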

How the data were processed

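Colon RNA was sequenced from 12 samples, 3 in each of 4 groups set by the labelled treatment, with libraries from a SMARTer kit per the labels' protocols. The authors deposited FPKM values for 54532 genes; mm10 is the build in the submitters' processing notes, and the aligner, counter and annotation were not given in the sources used here. Symbols and coordinates came from GENCODE M21. Exon lengths turned FPKM into fragments, and 98.5% to 98.9% of values under 50 fragments were whole within 0.1.

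Genes that reached FPKM 1 in 3 or more of the 6 HFD+DSS and CD samples were tested with limma 3.58.1 in R 4.3.3 (empirical Bayes with trend) on log2(FPKM + 1) over all 12 samples, with Benjamini-Hochberg adjustment. A fold change on this scale understates the change of low genes. The fit was also run on simulated fragments that had the same spread for all genes and no library set apart. That run therefore does not show how far the calls made here hold. Alternatives covered pseudocounts, filters, samples, weights, a replicate block, covariates, TPM rescaling and limma voom on recovered fragments.

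The genes compared and the lists were chosen with earlier results of these data known. Genes named were the called genes of largest change, up to 3 members of each list by smallest p, the posterior Hox genes, a short list of defence, cytokine and autophagy genes and the smallest p among falls. Genes given beyond that rule, such as Clca4a, Zg16, Rnf43, Plin2, Osmr and Slc5a8, the called genes it left out (Igkv4-90 and clone names among them), the middle HoxB genes and the transport genes were chosen after their values were seen.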

Additional observations from a re-analysis of the deposited data

How the results depend on the processing

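The 19 genes called in HFD+DSS against CD kept their direction under every alternative in which they were tested, but the number called did not hold. It was 3 with no filter on low values (2 shared with the 19), 39 with the minimum at FPKM 5 (17 shared), 33 after rescaling to TPM (18 shared), 11 by limma voom on recovered fragments (11 shared) and 2989 with array weights (19 shared). The 6 samples alone gave 13, of which 7 were among the 19; it was 0 with the middle HoxB level as covariate and 1 with CD replicate 3 as the sole CD library, which was none of the 19, both chosen after seeing the data. Leaving out 1 library gave 1 to 52 genes. With the replicate number as a block there were 10, of which 7 were among the 19; deviations of same-numbered HFD+DSS and CD samples correlated at 0.09, -0.17 and 0.22, so the numbers were not taken as pairs. The posterior Hox difference lay between -0.33 and 0.66 without 1 library (-0.19 without HFD+DSS replicate 3, -0.08 without CD replicate 1) and was 0.08 with the replicate block.

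Some fold changes of genes not called changed sign. Hoxa13, at -0.65 in the reported fit, was at 0.63 with the middle HoxB covariate and 0.32 with CD replicate 3 as the sole CD library, and Ddx3y at 0.129 and 0.0535 in these fits. Hoxb13 was at -0.0632 with the posterior Hox covariate, -0.0007 as TPM and -0.259 to 0.378 without 1 library. Map1lc3b was at -0.0446 with the middle HoxB covariate, -0.0294 as TPM and -0.013 to 0.0823 without 1 library, and Sqstm1 at 0.0577 with array weights and -0.150 to 0.0387 without 1 library. Array weights turned the sign of 12 list medians, among them macrophage (0.42), B and plasma cell (0.07), interferon (-0.50), unfolded protein (0.08), xenobiotic (0.18), fibroblast (0.17), endothelial (0.28) and smooth muscle genes (-0.05). The middle HoxB covariate turned the medians of proliferation (0.21) and colonocyte genes (0.20), among others, and CD replicate 3 as the sole CD library turned 7, among them T and NK cell (-0.27), colonocyte (0.15) and adipocyte genes (-0.28). With the minimum at FPKM 5 the median was 1.00 for nerve and glia genes and 0.09 for chemokines. The cause of these moves was not tested.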
